A study of Mus musculus with 18 samples.

Results

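Toll-like receptors are the membrane proteins with which macrophages recognise microbial products, and the mouse genes Tlr1 to Tlr9 and Tlr13 were followed here in macrophages grown in the plasma of different mice. The members were the rows of the deposited expression table whose platform annotation gave 1 of these symbols. All 10 genes had 1 row each, among 24705 rows with 1 gene symbol. The cells were mouse bone marrow-derived macrophages, made from marrow with M-CSF (macrophage colony-stimulating factor) at 30 ng/ml. After 4 days they received medium with 10% plasma, and RNA was taken 48 h later, on day 6. The plasma came from mice kept on a Western diet for 8 weeks, and its donor defined the group. WT plasma was from wildtype C57BL/6J mice (4 arrays) and ApoE plasma from C57BL/6J mice lacking ApoE, the apolipoprotein that clears remnant lipoproteins (5 arrays). AS1 plasma was from C57BL/6J mice lacking both ApoE and Stab1 (3 arrays), and AS2 plasma from C57BL/6J mice lacking both ApoE and Stab2 (6 arrays). Stab1 and Stab2 encode stabilin-1 and stabilin-2, scavenger receptors of sinusoidal endothelium and, for stabilin-1, of some macrophages. AS1 and AS2 donors thus shared the loss of ApoE with the ApoE donors, which were their direct controls. The knockouts were those of the plasma donors, so no gene level in the macrophages checks a label. The genotype, sex and age of the marrow donors, and whether replicates were separate cultures, were not given in the sources used here, and the p-values therefore reflect only how far arrays of a group spread, which may be technical.

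Each Toll-like receptor has an ectodomain of leucine-rich repeats that binds its ligand and a cytoplasmic TIR domain that recruits adaptors. TLR1, TLR2, TLR4, TLR5 and TLR6 sit at the cell surface and recognise bacterial lipopeptides, lipopolysaccharide or flagellin, whereas TLR3, TLR7, TLR8, TLR9 and TLR13 are carried to endosomes by UNC93B1 and recognise nucleic acids. MyD88 serves all of them except TLR3, which uses TRIF, and TLR4 uses both; the pathways end in NF-kB and interferon regulatory factors.

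The windows upstream of Tlr5, Tlr9 and Tlr1 are printed because these genes carried the largest changes described below. They are RefSeq sequence of the mouse build GRCm38.p6, from 250 bases before to 50 bases after the annotated transcript start, written 5′ to 3′ on the strand of the gene, and capitals mark matches to a searched motif. Tlr5 lies on the plus strand at chr1:182954538-182954837, Tlr9 on the plus strand at chr9:106222348-106222647, and Tlr1 on the minus strand at chr5:64933509-64933808.
Tlr5: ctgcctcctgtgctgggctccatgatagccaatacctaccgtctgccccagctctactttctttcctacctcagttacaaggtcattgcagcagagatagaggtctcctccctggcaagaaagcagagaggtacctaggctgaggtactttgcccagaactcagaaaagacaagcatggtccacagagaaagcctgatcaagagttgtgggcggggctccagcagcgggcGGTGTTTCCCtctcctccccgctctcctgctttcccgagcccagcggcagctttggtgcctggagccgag
Tlr9: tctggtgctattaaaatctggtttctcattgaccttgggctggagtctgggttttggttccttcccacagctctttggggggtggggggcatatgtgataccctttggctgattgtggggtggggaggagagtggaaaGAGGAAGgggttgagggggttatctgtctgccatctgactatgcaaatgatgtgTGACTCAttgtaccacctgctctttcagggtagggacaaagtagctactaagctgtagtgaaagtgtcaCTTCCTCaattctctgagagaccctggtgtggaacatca
Tlr1: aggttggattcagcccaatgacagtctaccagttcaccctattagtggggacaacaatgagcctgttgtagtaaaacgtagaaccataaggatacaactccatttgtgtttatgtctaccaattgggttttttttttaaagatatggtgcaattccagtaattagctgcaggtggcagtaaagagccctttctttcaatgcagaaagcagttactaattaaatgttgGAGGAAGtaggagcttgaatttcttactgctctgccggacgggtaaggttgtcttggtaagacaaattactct
Motifs were searched on both strands. In the Tlr5 window the capitals are a match to the kB-type motif, GGGA and CC with 4 free bases between them, whose first base lies 20 bases before the start; 20.7% of 32851 windows of all genes held such a match. In the Tlr9 window they are 1 AP-1 match (TGANTCA, in 7.81% of all windows) whose first base lies 58 bases before the start, and 2 matches to the PU.1-type letters GAGGAAG, which 13.6% of all windows held. In the printed Tlr1 window they are 1 PU.1-type match, whose first base lies 23 bases before the start. Tlr1 had another annotated start, with its window at chr5:64932650-64932949, which is not printed and held no match to a searched motif. Windows were matched for 8 of the 10 members (not for Tlr4 and Tlr7), 10 windows in all. Among these, 3 held the PU.1-type letters, 3 the kB-type letters, 1 the AP-1 letters, 1 the IRF-type motif, GAAA repeated after 2 free bases (3.44% of all windows; Tlr6, as 2 matches that overlap each other) and 1 the ATF4-CHOP letters TGATGNAA (3.97% of all windows; Tlr8). The PU.1-type match of the third window was in Tlr13, and the other kB-type matches were in Tlr2 and Tlr3. A match is a description of letters and not a binding site.

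Values were the deposited log2 expression levels of Affymetrix arrays, and a change is a difference of group means in log2 units, with 1 unit equal to a 2-fold difference. Tests were made with limma over the 4 groups, with Benjamini-Hochberg adjustment over all 24705 rows, and a gene was called where the adjusted p was under 0.05. The sorted values were identical in 17 of the 18 arrays, and in the remaining array, ApoE replicate 1, they differed from the others by at most 0.0019. ApoE replicate 2 had the lowest mean correlation with its own group (r = 0.9912), and ApoE replicate 5 had the highest correlation with an array of another group (r = 0.9935 with AS1 replicate 3, against a mean of 0.9942 with its own group). Results that rest on either array are given without them. The macrophage label was checked with 9 markers, none of which had a group mean under the array median of 4.37. Their mean was 11.25 to 11.29 in WT, 10.68 to 10.91 in ApoE, 11.10 to 11.23 in AS1 and 10.63 to 10.81 in AS2 arrays. Of these 9, 6 were lower and 1 higher for ApoE against WT, 6 higher and 0 lower for AS1 against ApoE, 2 higher and 3 lower for AS2 against ApoE, and 7 lower and 0 higher for AS2 against WT. The mean of 13 neutrophil and granulocyte-precursor markers was 7.41 to 7.78 in WT, 7.32 to 8.49 in ApoE, 9.28 to 9.55 in AS1 and 6.77 to 7.52 in AS2. The mean of 7 monocyte markers was 7.49 to 7.71 in WT, 6.09 to 6.59 in ApoE, 7.39 to 7.58 in AS1 and 6.29 to 6.62 in AS2. The markers of all 3 cell types moved with the groups, and their part in the results below was not tested. In RNA from whole cultures, fewer cells of a type and less RNA per cell cannot be told apart.

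Every member had a level above the array median of 4.37 in every array. With ApoE instead of WT plasma, 6 of the 10 Toll-like receptor genes fell and none rose, with Tlr1 and Tlr9 at about 2-fold lower levels; of all rows, 8.36% were lower and 8.54% higher in that comparison. With AS1 instead of ApoE plasma, 4 members rose and 1 fell, led by Tlr9, where 7.74% of all rows were higher and 8.8% lower. With AS2 instead of ApoE plasma, 3 members rose and 2 fell, led by a 4.22-fold fall of Tlr5, where 7.59% of all rows were higher and 8.02% lower (15.6% in all). Against WT, AS1 plasma gave 1 member higher and 4 lower (4.84% and 4.64% of all rows, 9.48% in all), and AS2 plasma 0 higher and 7 lower (8.65% and 9.2%). Between the stabilin groups, 2 members were higher and 5 lower with AS2 than with AS1 plasma (11.5% and 10.6% of all rows, 22.1% in all). Genes at low levels rarely pass the test, so shares were also taken among rows with a mean at or above the 40th percentile, which includes the 10 members. The share called in either direction was 27.3% for ApoE against WT, 27.1% for AS1 against ApoE and 25.3% for AS2 against ApoE. It was 15.2% for AS1 against WT, 28.7% for AS2 against WT and 35.5% for AS2 against AS1. The median change of the 10 members was −0.46 for ApoE against WT, 0.25 for AS1 against ApoE and 0.03 for AS2 against ApoE, where the medians over all rows were between −0.004 and 0.002. These comparisons share the ApoE arrays or the WT arrays and are not independent of each other.

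**Figure D1:**
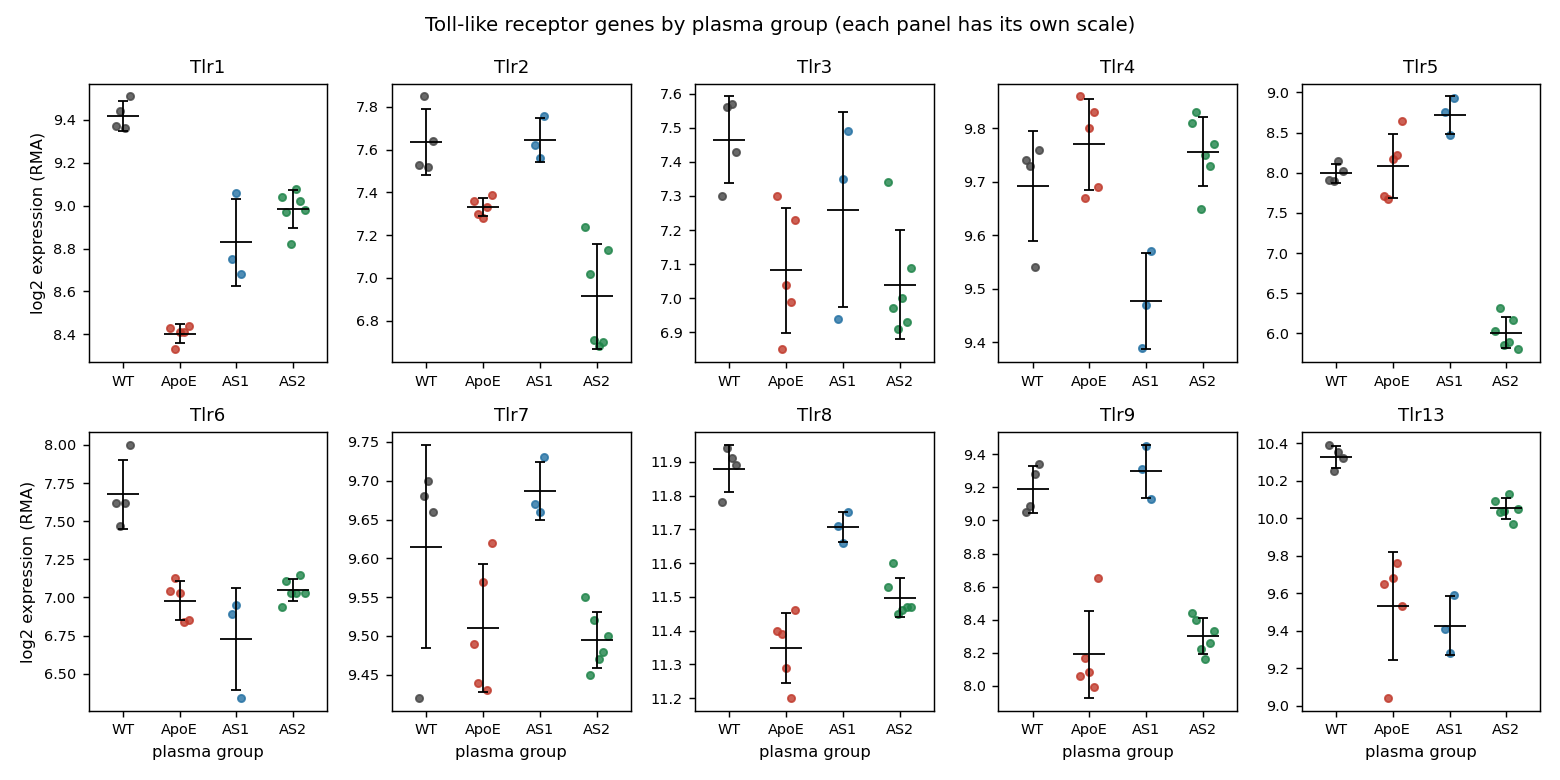
Log2 expression of the 10 Toll-like receptor genes on each of the 18 arrays, 1 panel per gene with its own vertical scale; points are arrays, and bars show the mean and SD of WT (n = 4), ApoE (n = 5), AS1 (n = 3) and AS2 (n = 6) plasma. Tlr5 with AS2 plasma lay between 5.80 and 6.31, below all other arrays, and Tlr1 was lowest with ApoE plasma, between 8.33 and 8.44.

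Tlr1, Tlr2 and Tlr6 encode the receptors for bacterial lipopeptides: TLR2 pairs with TLR1 for triacylated and with TLR6 for diacylated lipopeptides. Tlr1 was 9.37, 9.44, 9.36 and 9.51 in the WT arrays and 8.43, 8.33, 8.41, 8.41 and 8.44 in the ApoE arrays. It was 8.75, 9.06 and 8.68 with AS1 plasma, and 8.82 at the lowest, 9.0 at the median and 9.08 at the highest with AS2 plasma. All WT arrays were above all others, all ApoE arrays below all others, and AS1 and AS2 overlapped each other in between. Tlr1 fell by 1.01 ± 0.067 (SE) with ApoE against WT plasma (2.02-fold lower, limma adjusted p = 1.1e-08). It rose by 0.43 ± 0.072 with AS1 (adjusted p = 0.000427) and by 0.58 ± 0.060 with AS2 against ApoE plasma (adjusted p = 1.58e-06). Both stayed below WT, by a difference of −0.59 for AS1 (adjusted p = 4.57e-05) and −0.43 for AS2 (adjusted p = 7.58e-05). The AS2 and AS1 means differed by 0.16 (95% interval 0.006 to 0.30, adjusted p = 0.144); without AS1 replicate 2 that difference was 0.27 and passed the test (adjusted p = 0.00455).

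Tlr6, which lies next to Tlr1 in the order of protein-coding genes of the RefSeq annotation, was 7.62, 7.47, 7.62 and 8.00 in WT and 7.04, 7.13, 7.03, 6.84 and 6.85 in ApoE arrays. It was 6.89, 6.95 and 6.34 in AS1, and in AS2 it ranged from 6.94 through a median of 7.03 to 7.15. The WT arrays stood above all the others, which overlapped. Tlr6 fell by 0.70 ± 0.12 with ApoE against WT plasma (1.62-fold lower, limma adjusted p = 0.000245). Against ApoE it did not pass the test in either stabilin group: the difference was −0.25 for AS1 (95% interval −0.52 to 0.012, adjusted p = 0.223) and 0.07 for AS2 (−0.15 to 0.29, adjusted p = 0.802). It remained below WT by −0.95 in AS1 (adjusted p = 9.14e-05) and −0.63 in AS2 (adjusted p = 0.000415). AS2 and AS1 differed by 0.32 (adjusted p = 0.0713). This difference passed with low rows left out (0.0428), with array weights (0.0413), without AS1 replicate 2 (0.0285) and without WT replicate 4 (0.0399).

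Tlr2, the shared partner of both, was 7.53, 7.85, 7.52 and 7.64 in WT, 7.36, 7.30, 7.28, 7.33 and 7.39 in ApoE, and 7.62, 7.56 and 7.76 in AS1 arrays. With AS2 plasma it was 6.68 at the lowest, 6.86 at the median and 7.24 at the highest. The AS2 arrays were below all other arrays, and the ApoE arrays lay between AS2 on one side and WT and AS1 on the other without overlap. Tlr2 fell by 0.42 ± 0.096 with AS2 against ApoE plasma (1.34-fold lower, limma adjusted p = 0.00462), and was lower by −0.72 against WT (adjusted p = 4.85e-05) and by −0.73 against AS1 (adjusted p = 9.26e-05). The difference between ApoE and WT was −0.30 (adjusted p = 0.0622), and that between AS1 and ApoE was 0.31 (adjusted p = 0.0783). Both passed in fits of their 2 groups alone (adjusted p = 0.0155 and 0.00946), with low rows left out (0.0391 and 0.0487) and without AS2 replicate 1 (0.0307 and 0.0402). AS1 and WT differed by 0.01 (95% interval −0.24 to 0.27).

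Tlr4 encodes the receptor for lipopolysaccharide, which works with the co-receptors MD-2 and CD14. It was 9.74, 9.73, 9.54 and 9.76 in WT, 9.86, 9.67, 9.80, 9.83 and 9.69 in ApoE, and 9.39, 9.47 and 9.57 in AS1 arrays. With AS2 plasma it ranged from 9.65 through a median of 9.76 to 9.83. The AS1 arrays were below every ApoE and AS2 array and overlapped only with WT replicate 3. Tlr4 fell by 0.30 ± 0.062 with AS1 against ApoE plasma (1.23-fold lower, limma adjusted p = 0.00241), the only member that fell in that comparison, and it was 0.28 higher with AS2 than with AS1 plasma (adjusted p = 0.00192). Against WT the difference of AS1 was −0.22 (adjusted p = 0.0409), and this call was lost without WT replicate 1 (0.103), 2 (0.0793) or 4 (0.11), without AS1 replicate 1 (0.197) or 2 (0.0975), and without AS2 replicate 4 (0.0503), 5 (0.051) or 6 (0.0526). ApoE and WT differed by 0.08 (95% interval −0.044 to 0.20), and AS2 and ApoE by −0.01 (−0.12 to 0.094).

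Tlr5 encodes the receptor for bacterial flagellin and gave the largest change of the family. It was 7.91, 7.90, 8.15 and 8.02 in WT, 7.71, 7.67, 8.17, 8.22 and 8.64 in ApoE, and 8.76, 8.47 and 8.93 in AS1 arrays. With AS2 plasma it was 5.80 at the lowest, 5.96 at the median and 6.31 at the highest. The AS2 arrays lay more than 1 log2 unit below every other array, ApoE overlapped with both WT and AS1, and AS1 was above every WT array. Tlr5 fell by 2.08 ± 0.15 with AS2 against ApoE plasma (4.22-fold lower, 95% interval of the change −2.39 to −1.76, limma adjusted p = 2.28e-08). The difference was −1.99 against WT (3.98-fold lower, adjusted p = 5.19e-08) and −2.72 against AS1 (6.57-fold lower, adjusted p = 6.68e-09). These 3 calls held under all 27 alternative settings. The 5 ApoE arrays were more spread for Tlr5 (SD 0.40) than for any other member, and ApoE and WT differed by 0.09 (95% interval −0.26 to 0.43).

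With AS1 plasma Tlr5 was 0.64 ± 0.18 higher than with ApoE plasma (1.56-fold, limma adjusted p = 0.019), although ApoE replicate 5 exceeded AS1 replicate 2. This call was lost without AS1 replicate 1 (adjusted p = 0.0712), without AS1 replicate 3 (0.108) and in a fit of the 2 groups alone (0.113). Against WT the difference was 0.73 (adjusted p = 0.0191), which was also lost without AS1 replicate 1 (0.0693) or 3 (0.107). Of the 13 neutrophil markers, 13 were higher with AS1 than with ApoE plasma, with a median change of 1.51, while with AS2 6 were lower and 0 higher. With AS2 against WT plasma 5 of the 13 were lower and 1 higher, with a median change of −0.56, beside the lower Tlr5; the ranges of the marker means were 6.77 to 7.52 in AS2 and 7.41 to 7.78 in WT. Ly6g, a marker of mature neutrophils, was the 1 marker of the 13 under the array median in every group, and the others included Ngp and Ltf at 12.23 and 11.38 in AS1. The part of these cells in the Tlr5 result was not tested.

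**Figure D2:**
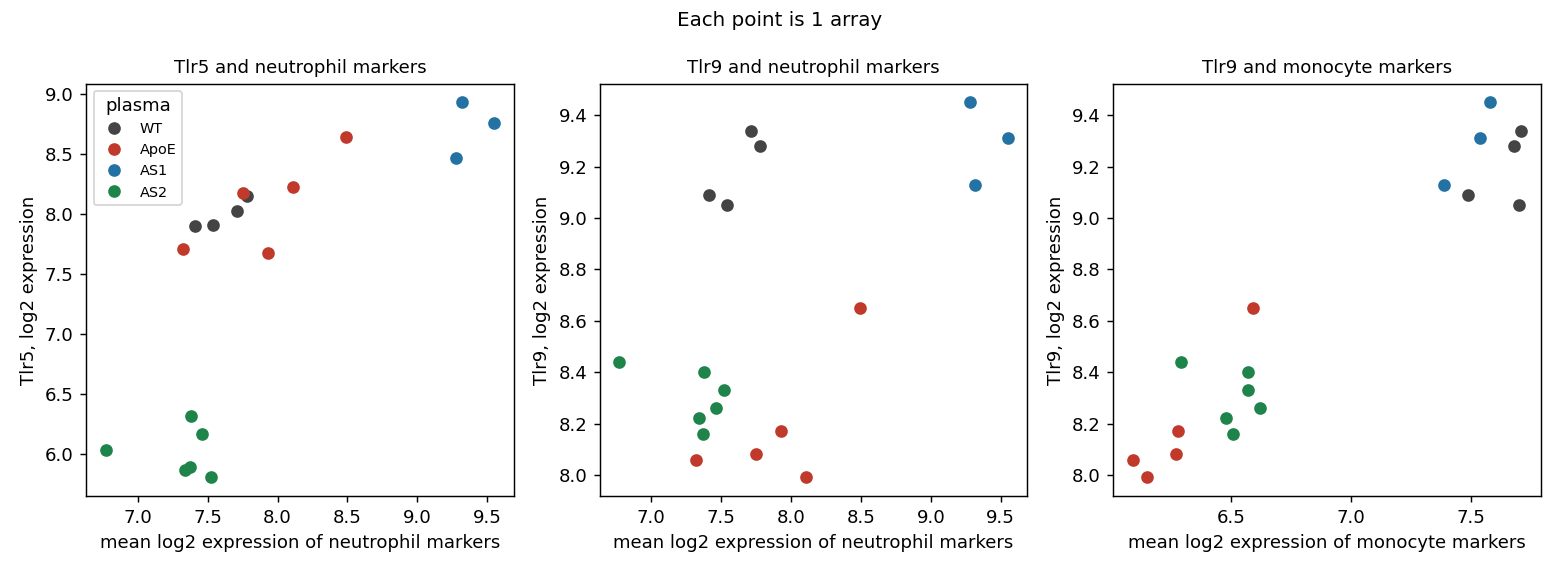
Log2 expression of Tlr5 (left) and Tlr9 (middle) against the mean log2 expression of 13 neutrophil markers, and of Tlr9 against the mean of 7 monocyte markers (right); each point is 1 of the 18 arrays, coloured by plasma group. AS2 arrays sat at 5.80 to 6.31 for Tlr5 and 6.77 to 7.52 for the neutrophil markers, and WT arrays at 7.90 to 8.15 and 7.41 to 7.78; for Tlr9, WT and AS1 arrays were both high in monocyte markers (7.39 to 7.71) and in Tlr9.

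Tlr9 encodes the endosomal receptor for DNA with unmethylated CpG motifs. It was 9.05, 9.09, 9.28 and 9.34 in WT, 8.06, 8.17, 8.08, 7.99 and 8.65 in ApoE, and 9.31, 9.45 and 9.13 in AS1 arrays. With AS2 plasma it ranged from 8.16 through a median of 8.29 to 8.44. The arrays fell into a high pair of groups, WT and AS1, and a low pair, ApoE and AS2, which did not overlap, although groups within each pair did. Tlr9 fell by 1.0 ± 0.11 with ApoE against WT plasma (2.00-fold lower, limma adjusted p = 4.46e-06) and rose by 1.11 ± 0.12 with AS1 against ApoE plasma (2.15-fold higher, adjusted p = 9.05e-06). AS1 and WT differed by 0.11 (95% interval −0.17 to 0.38, adjusted p = 0.747). AS2 was lower than WT by −0.89 (adjusted p = 9.27e-06) and lower than AS1 by −0.99 (adjusted p = 7.25e-06).

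Between AS2 and ApoE the Tlr9 difference was 0.11 (95% interval −0.10 to 0.33, limma adjusted p = 0.607), and without ApoE replicate 5, the ApoE array with the highest level, it was 0.23 and passed the test (adjusted p = 0.0452). ApoE replicate 5 also had the highest neutrophil marker mean (8.49) and the highest monocyte marker mean (6.59) of its group. Of the 7 monocyte markers, 5 were called lower and 0 higher when ApoE replaced WT plasma, 6 were higher with AS1 than with ApoE plasma and 0 lower, and 3 were higher and 2 lower with AS2 than with ApoE plasma. Tlr9 is also high in plasmacytoid dendritic cells and B cells. The mean of 8 plasmacytoid markers was 5.60 to 5.74 in WT and 5.72 to 5.89 in ApoE arrays. It was 5.92 to 6.07 in AS1 and 5.58 to 5.66 in AS2 arrays. Of the 8, 3 (Ccr9, Klk1 and Spib) were under the array median in every group. Tcf4, with group means of 9.43 to 9.89, and Bst2, with 10.21 to 10.72, stood far above the others and raised the mean. Of the 8, 2 were higher and 1 lower for ApoE against WT, and 4 higher and 1 lower for AS1 against ApoE. The defining marker Siglech was at 4.4, 4.7, 5.40 and 4.52 in WT, ApoE, AS1 and AS2. Siglech rose in both comparisons (0.30 and 0.70), while Tcf4 differed by −0.36 and then 0.46, and Cox6a2 by 0.91 and then −0.81. The mean of 6 B cell markers was 4.65 to 4.82 in WT, 4.70 to 4.90 in ApoE, 5.00 to 5.29 in AS1 and 4.49 to 4.58 in AS2 arrays, and 4 of the 6, Cd79a and Ms4a1 among them, were under the array median in every group. The other 2 were above it in every group: Cd79b had group means of 6.48, 5.94, 7.16 and 5.36 in WT, ApoE, AS1 and AS2, and Cd22 had 6.73, 7.41, 7.31 and 6.33. Cd79b fell by 0.53 with ApoE against WT plasma and rose by 1.22 with AS1 against ApoE plasma, the directions of Tlr9. It fell by 0.58 with AS2 against ApoE plasma. Cd22 rose by 0.67 for ApoE against WT, differed by −0.09 for AS1 against ApoE and fell by 1.07 for AS2 against ApoE. The part of plasmacytoid dendritic cells and B cells in the Tlr9 result was not tested.

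Tlr7 and Tlr8, neighbours on the X chromosome, encode receptors for single-stranded RNA and its degradation products. Tlr8 was 11.78, 11.94, 11.91 and 11.89 in WT, 11.40, 11.39, 11.29, 11.20 and 11.46 in ApoE, and 11.71, 11.66 and 11.75 in AS1 arrays. With AS2 plasma it was 11.45 at the lowest, 11.47 at the median and 11.60 at the highest. WT was above all other arrays and AS1 above all ApoE and AS2 arrays, while AS2 overlapped with ApoE at ApoE replicate 5. Tlr8 fell by 0.53 ± 0.052 with ApoE against WT plasma (1.45-fold lower, limma adjusted p = 8.32e-07) and rose by 0.36 ± 0.056 with AS1 against ApoE plasma (1.28-fold higher, adjusted p = 0.000194). AS2 was lower than WT by −0.39 (adjusted p = 1.72e-05) and lower than AS1 by −0.21 (adjusted p = 0.00758), and AS1 differed from WT by −0.17 (adjusted p = 0.0834) without overlap, which passed without WT replicate 1 (0.0498) or ApoE replicate 4 (0.0483).

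The higher level of Tlr8 with AS2 than with ApoE plasma was small, 0.15 ± 0.047 (1.11-fold, limma adjusted p = 0.0384). It was lost without ApoE replicate 3 (adjusted p = 0.0958) or 4 (0.119), without AS2 replicate 1 (0.0723), 2 (0.0918), 5 (0.0529) or 6 (0.0515), with low rows left out (0.0597) and in a fit of the 2 groups alone (0.074). Tlr7 varied least of the family. It was 9.42 to 9.70 in WT, 9.43 to 9.62 in ApoE, 9.66 to 9.73 in AS1 and 9.45 to 9.55 in AS2 arrays, so that AS1 was above every ApoE and AS2 array but not above WT. Tlr7 passed the test only between AS2 and AS1, with a difference of −0.19 ± 0.056 (adjusted p = 0.0213), and this call was lost without AS1 replicate 1 (0.0567) or 3 (0.105). Between AS1 and ApoE the difference was 0.17 (adjusted p = 0.0507), and it passed without ApoE replicate 5 (0.0233) and without WT replicate 1 (0.0112) or 3 (0.0499). ApoE and WT differed by −0.11 (95% interval −0.22 to 0.008) and AS2 and WT by −0.12 (−0.23 to −0.011, adjusted p = 0.141). Without WT replicate 1, the lowest WT array, these became −0.17 (adjusted p = 0.0147) and −0.18 (adjusted p = 0.00642) and passed.

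Tlr13, the endosomal receptor for bacterial ribosomal RNA, was 10.39, 10.25, 10.35 and 10.32 in WT, 9.65, 9.04, 9.68, 9.76 and 9.53 in ApoE, and 9.41, 9.28 and 9.59 in AS1 arrays. With AS2 plasma it ranged from 9.97 through a median of 10.04 to 10.13. WT was highest and AS2 next, without overlap with any other group, while ApoE and AS1 overlapped. Tlr13 fell by 0.80 ± 0.11 with ApoE against WT plasma (1.74-fold lower, limma adjusted p = 3.44e-05) and rose by 0.52 ± 0.097 with AS2 against ApoE plasma (1.43-fold higher, adjusted p = 0.000851). It was 0.62 higher with AS2 than with AS1 plasma (adjusted p = 0.000504), and AS1 was below WT by −0.90 (adjusted p = 8.39e-05). AS1 and ApoE differed by −0.10 (95% interval −0.35 to 0.14, adjusted p = 0.688); without ApoE replicate 2, the lowest array, the difference was −0.23 and passed the test (adjusted p = 0.0276). AS2 and WT differed by −0.28 (adjusted p = 0.0824). This difference passed in a fit of the 2 groups alone (adjusted p = 0.000539), with array weights (0.0102) and without ApoE replicate 2 (0.0019), an array of neither group.

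Tlr3, the receptor for long RNA duplexes, was 7.30 to 7.57 in WT, 6.85 to 7.30 in ApoE, 6.94 to 7.49 in AS1 and 6.91 to 7.34 in AS2 arrays. Its groups lay closer together than those of Tlr9 or Tlr13. The ApoE arrays were at or below the lowest WT array, and the other groups overlapped. Tlr3 was 0.38 ± 0.12 lower with ApoE than with WT plasma (1.31-fold, limma adjusted p = 0.0271). This call was lost without WT replicate 2 (adjusted p = 0.0746), 3 (0.0846) or 4 (0.0511) and without ApoE replicate 2 (0.0699), 3 (0.0523) or 4 (0.0612). AS2 was lower than WT by −0.42 (adjusted p = 0.011). AS1 and ApoE differed by 0.18 (95% interval −0.082 to 0.45), and AS2 and ApoE by −0.04 (−0.26 to 0.18). AS2 and AS1 differed by −0.22 (adjusted p = 0.247), which was −0.38 and passed without AS1 replicate 1 (0.037). Tlr11 and Tlr12, which bind apicomplexan profilin, had group means of 3.92 to 4.09, under the array median, and passed the test in none of the 6 comparisons.

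**Figure D3:**
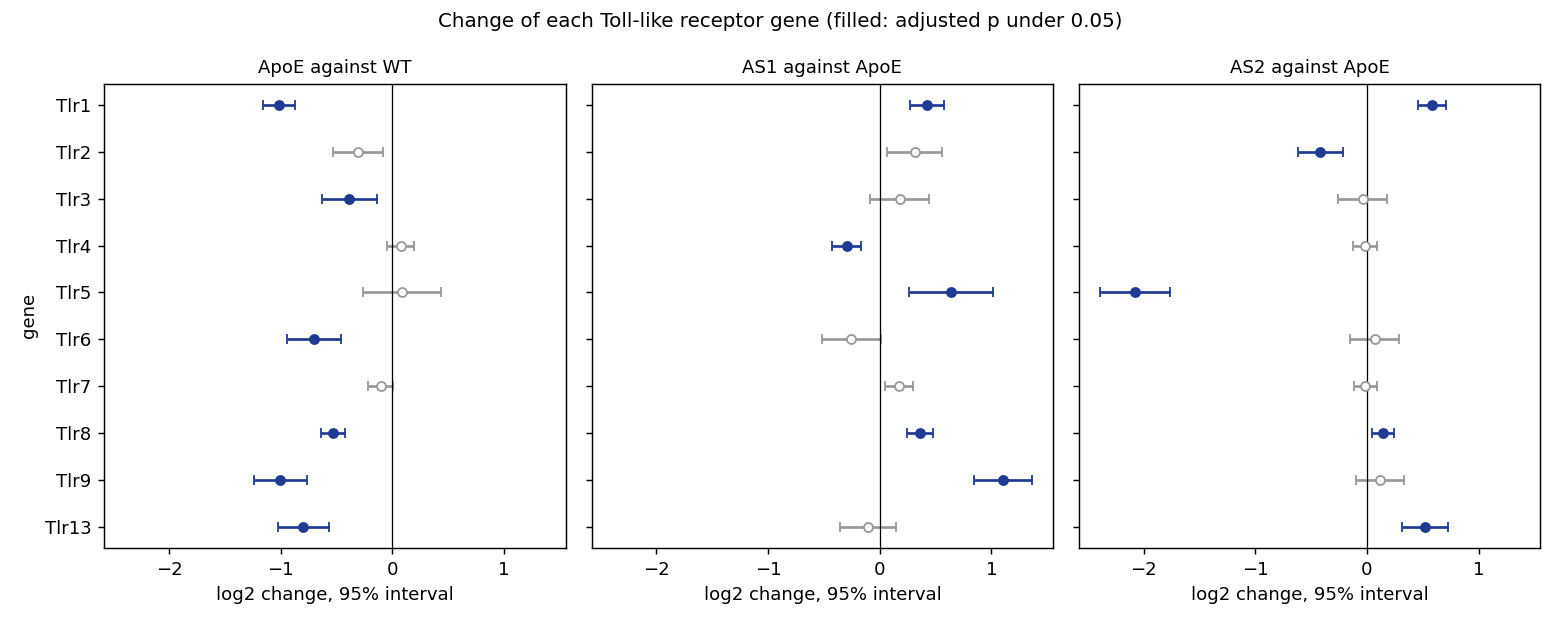
Log2 change of each of the 10 Toll-like receptor genes with its 95% interval from limma, in the 3 comparisons of ApoE with WT, AS1 with ApoE and AS2 with ApoE plasma; filled points had an adjusted p under 0.05. In the left panel 6 genes were lower; in the others Tlr9 (1.11, AS1) and Tlr5 (−2.08, AS2) lay farthest from 0.

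The order of the group means differed between members, and many neighbours in these orders did not pass the test. WT was highest for Tlr1, Tlr3, Tlr6, Tlr8 and Tlr13, AS1 for Tlr2, Tlr5, Tlr7 and Tlr9, and ApoE for Tlr4. The difference between the highest and the next mean passed the test for Tlr1 (WT over AS2), Tlr5 (AS1 over ApoE) and Tlr6 (WT over AS2). The lowest mean was that of ApoE for Tlr1, Tlr8 and Tlr9, of AS1 for Tlr4, Tlr6 and Tlr13, and of AS2 for Tlr2, Tlr3, Tlr5 and Tlr7. The difference between the lowest mean and the next one passed for Tlr1, Tlr2, Tlr4, Tlr5 and Tlr8, and did not pass for the other 5 genes. Of the steps that passed, those of Tlr4 (AS1 under WT), Tlr8 (ApoE under AS2) and Tlr5 (AS1 over ApoE) were lost when single arrays were left out, as given above. The distance between highest and lowest mean ran from 0.19 for Tlr7 to 2.72 for Tlr5. The number of comparisons called out of 6 was 5 for Tlr1, Tlr5 and Tlr8, 4 for Tlr9 and Tlr13, 3 for Tlr2, Tlr4 and Tlr6, 2 for Tlr3 and 1 for Tlr7.

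The genes most like a member over the 18 arrays were read from 14813 rows at or above the 40th percentile of row means. These correlations describe arrays that share group means, and carry no test. For Tlr5 the closest were Lrp5 (r = 0.981), a Wnt co-receptor, and Mvb12b and Grina (both r = 0.98). For Tlr9 they were Ly86 (r = 0.973), which encodes the MD-1 partner of RP105, then Rgs10 (r = 0.97) and N4bp2l1 (r = 0.969). For Tlr1 they were Stap1 (r = 0.974), B4galt6 (r = 0.966) and Ptpn6 (r = 0.963), the last encoding the phosphatase SHP-1. For Tlr13 they were Dhrs7b (r = 0.976), Zfp799 (r = 0.953) and the caveolin gene Cav1 (r = 0.943). For Tlr8 the closest was Plxdc2 (r = 0.965).

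The genes that serve the receptors were counted from 7 lists, of which 76 of 84 genes had a row. Of these 76, 29 fell and 13 rose from WT to ApoE plasma (8.36% and 8.54% of all rows). With AS1 against ApoE plasma 30 were higher and 11 lower (7.74% and 8.8%). With AS2 against ApoE plasma 15 were higher and 15 lower (7.59% and 8.02%). Among rows with a mean at or above the 40th percentile, 27.3%, 27.1% and 25.3% were called in either direction. The same shares are the background for the counts of single lists that follow. The median changes of the 76 genes were −0.11, 0.16 and −0.04. Among 6 genes for co-receptors and ligand transfer, 3 fell and 2 rose with ApoE against WT plasma, 4 rose and 1 fell with AS1 against ApoE, and 3 rose and 1 fell with AS2 against ApoE. Ly86 fell by 0.66 and rose by 0.68 in the first 2 of these comparisons and differed by −0.05 in the third. It shared the directions of Tlr9 in the first 2, but had been named above as the row most like Tlr9 on these same arrays. Cd180, the RP105 gene, rose by 0.185 with ApoE against WT plasma, a call lost without WT replicate 1 (limma adjusted p = 0.0705). Cd180 differed by −0.065 with AS1 and rose by 0.34 with AS2 against ApoE plasma. Lbp, which encodes the lipopolysaccharide-binding protein, rose by 0.74 with ApoE against WT plasma and by 0.52 with AS1 against ApoE plasma, and fell by 0.87 with AS2 against ApoE plasma. Of the co-receptor genes of Tlr4, Cd14 fell by 0.40 and Ly96 (MD-2) by 0.58 with ApoE against WT plasma. With AS1 against ApoE plasma Cd14 rose by 0.33 and Ly96 by 0.52, calls lost without AS1 replicate 2 for Cd14 (adjusted p = 0.0856) and without AS1 replicate 1 (0.148) or 3 (0.109) for Ly96. Cd14 rose by 0.39 with AS2 against ApoE plasma, while Ly96 differed by −0.10.

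Among 14 genes for trafficking and processing of endosomal receptors, 5 rose and 4 fell with ApoE against WT plasma, 4 rose and 5 fell with AS1 against ApoE, and 4 rose and 2 fell with AS2 against ApoE. The second count of 9 genes dropped to 5 without AS1 replicate 1. Unc93b1, the carrier of the endosomal receptors, fell by 0.31 with ApoE against WT plasma and rose by 0.36 with AS1 against ApoE plasma. The endosomal Tlr8 and Tlr9 did so too, as did Tlr1 of the cell surface. The endosomal Tlr3, Tlr7 and Tlr13 were not called for AS1 against ApoE. In limma fits of the 2 groups alone the adjusted p of Unc93b1 was 0.0526 and 0.0645. With AS2 plasma Unc93b1 differed from ApoE by −0.11. Hsp90b1 (gp96), the chaperone of Toll-like receptors, rose by 0.66 with ApoE against WT plasma and fell by 0.65 with AS1 and by 0.56 with AS2 against ApoE plasma. Slc15a3, a lysosomal peptide and histidine transporter, rose by 0.52 and then fell by 0.40 and 1.26 in the same comparisons.

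Among 6 adaptor genes, 3 fell with ApoE against WT plasma and none rose, 2 rose and 1 fell with AS1 against ApoE, and 2 rose and 1 fell with AS2 against ApoE. Myd88 fell by 0.88 with ApoE against WT plasma and rose by 0.45 with AS2 against ApoE plasma, and its difference for AS1 against ApoE was 0.19. Pik3ap1 (BCAP), which links the receptors to PI3-kinase, fell by 0.48 with ApoE, rose by 0.21 with AS1 and rose by 0.28 with AS2. Ticam2 (TRAM), the bridging adaptor of TLR4, fell by 0.50 with AS1 and by 0.60 with AS2 against ApoE plasma. Ticam1 (TRIF), the adaptor of TLR3, did not pass the test in these 3 comparisons. Among 13 kinases, ligases and scaffolds, 6 fell and 1 rose with ApoE against WT plasma, 4 rose and 2 fell with AS1, and 1 rose and 4 fell with AS2. Ikbke, a kinase upstream of interferon regulatory factors, fell by 0.54 with ApoE, rose by 0.43 with AS1 and fell by 0.25 with AS2 plasma. Among 11 negative regulators, 3 fell and 2 rose, 3 rose and 1 fell, and 1 rose and 2 fell in the same order. Irak3 (IRAK-M), a brake on the receptor complex of macrophages, fell by 0.56 with ApoE, rose by 0.67 with AS1 and fell by 0.41 with AS2 plasma.

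The 9 transcription factor genes were lower in 5 cases and higher in none with ApoE against WT plasma, higher in 8 and lower in none with AS1 against ApoE, and higher in 3 and lower in 1 with AS2 against ApoE. Irf7, which drives type I interferon genes downstream of TLR7 and TLR9, fell by 1.59 ± 0.13 (SE) with ApoE against WT plasma (limma adjusted p = 1.82e-07). It rose by 1.0 ± 0.15 with AS1 (adjusted p = 0.000107) and by 0.70 ± 0.12 with AS2 against ApoE plasma (adjusted p = 0.000394). Irf5, the factor for inflammatory cytokine genes, fell by 0.66, rose by 0.40 and rose by 0.41 in the same comparisons, and Nfkb2 fell by 1.0, rose by 0.56 and rose by 0.58. Of 17 genes that the receptors induce, 5 fell and 3 rose with ApoE, 5 rose and 1 fell with AS1, and 1 rose and 4 fell with AS2. Il6, Nos2, Ifnb1 and Cd69 had means under the array median of 4.37 in every group. Il12b, Cxcl1 and Cxcl10 lay close to it, with group means between 4.295 and 4.551. None of these genes was called in these comparisons, and at such levels a missing call says little. Nfkbiz, which encodes the inducible nuclear regulator IkBζ, fell by 1.01 with ApoE, rose by 0.52 with AS1 and fell by 0.30 with AS2. Cxcl2, a neutrophil chemokine, rose by 1.20 with ApoE and fell by 1.13 with AS1 and by 1.45 with AS2; in a fit of the AS1 and ApoE arrays alone its adjusted p was 0.0759. Il1b fell by 1.61 with ApoE, rose by 2.07 with AS1 and fell by 0.51 with AS2, the last a call lost without AS2 replicate 1 (adjusted p = 0.0883). Il10, an anti-inflammatory cytokine gene, fell by 1.14 with ApoE, rose by 0.32 with AS1 and rose by 0.68 with AS2. Its group means were 5.41, 4.275, 4.60 and 4.96 in WT, ApoE, AS1 and AS2, with ApoE under the array median. The AS1 call of Il10 was lost without AS1 replicate 1 (adjusted p = 0.126) or 2 (0.247) and without ApoE replicate 1 (0.0871), 2 (0.0769) or 4 (0.0576). In fits of the AS1 and ApoE arrays alone, the count called was 3 of the 17 induced genes, 4 of the trafficking genes and 3 of the co-receptor genes, and for ApoE against WT 4 of the trafficking genes. Without both ApoE replicates 2 and 5, 8 negative regulators were called for ApoE against WT in place of 5. With array weights, 8 induced genes were called for AS2 against ApoE in place of 5.

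**Figure D4:**
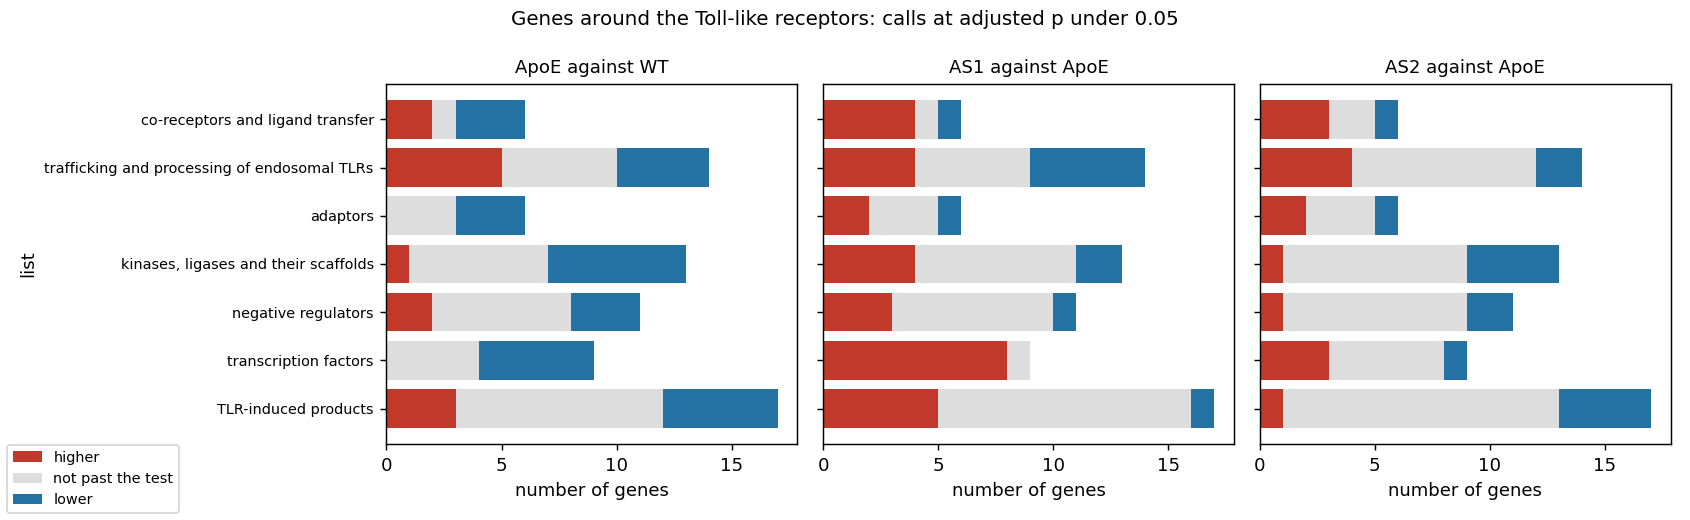
Number of genes called higher (red), lower (blue) or not past the test (grey) in each of 7 lists of genes around the Toll-like receptors, in the 3 comparisons of ApoE with WT, AS1 with ApoE and AS2 with ApoE plasma (limma adjusted p under 0.05). Of the 9 transcription factor genes, 5 were lower in the first panel, 8 higher in the second and 3 higher in the third.

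In the comparisons with WT, 18 of the 76 pathway genes were called for AS1 (9.48% of all rows) and 38 for AS2 (17.8%). Between AS2 and AS1, 38 were called (22.1%). Among rows with a mean at or above the 40th percentile, these shares were 15.2%, 28.7% and 35.5%. The transcription factor list gave 2 higher and 3 lower for AS1 against WT, a count of 5 that ranged down to 1 when single arrays of WT or AS1 were left out, and 0 higher and 6 lower for AS2 against WT. The kinases gave 0 higher and 7 lower for AS2 against WT. The 10 receptor genes gave 7 lower in that comparison, and 7 of the 10 also did not overlap between AS2 and WT, where 17% of all rows did not overlap. For ApoE against WT 7 receptor genes did not overlap (14.3% of all rows), for AS1 against ApoE 6 (18.2%), for AS2 against ApoE 4 (10.9%) and for AS2 against AS1 7 (23.9%). For AS1 against WT the member count of 5 was 3 without AS1 replicate 1, which ended the calls of Tlr4 and Tlr5.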

How the data were processed

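RNA of 18 samples of mouse bone marrow-derived macrophages was measured on Affymetrix arrays. The deposited values were log2 expression levels which the authors made with RMA, as the labels' list of tools says (per the submitters' processing notes). Neither the version of RMA nor the definition of its probe sets was given in the sources used here. In the table were 25428 rows, of which 24705 had 1 gene symbol in the platform annotation and 723 were not listed. Identical sorted values on 17 arrays are what quantile normalization gives, which removes differences in total signal between groups, so changes are relative to the other genes. No counts exist for arrays, and the number of arrays limits the precision.

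Group means were fitted with limma 3.58.1 in R 4.3.3 (lmFit and eBayes, 14 residual degrees of freedom, two-sided). P-values were adjusted by Benjamini and Hochberg's method over the 24705 rows, and calls were made under 0.05. Scripts were tested on simulated data. All members were named; pathway genes were named from the 3 with the smallest p per list and comparison, plus Unc93b1, Cd14, Ly96, Myd88, Ticam1, Irf5 and Irf7, and only part of them is printed; alike genes were the 3 with the highest r. The members and lists were chosen with earlier results of these data known. Alternatives were a filter on rows under the 40th percentile, a trended and robust variance, array weights, the replicate number as a block, each fit on 2 groups alone, and leaving out each array or both ApoE replicates 2 and 5. Genes without a matched row (Irak4, Nfkb1 and others) were not analysed here.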

Additional observations from a re-analysis of the deposited data

Results flagged for a closer look

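For each member, the highest and lowest array of WT, ApoE and AS2 plasma was compared with the rest of its group by Dixon's ratio of the gap to the range, which gave 30 tests, of which chance marks about 1 in 20; groups of 3 arrays (AS1) were not tested. In 3 of them 1 array stood apart. Tlr4 in WT replicate 3 was 9.54, with the nearest WT array at 9.73 and the highest at 9.76, a ratio of 0.89, above Dixon's 95% critical value for 4 arrays. Tlr7 in WT replicate 1 was 9.42, with the nearest at 9.66 and the highest at 9.70, a ratio of 0.844. Tlr9 in ApoE replicate 5 was 8.65, with the nearest at 8.17 and the lowest at 7.99, a ratio of 0.72 against 0.71 for 5 arrays. Without WT replicate 1 Tlr7 was called lower than WT with ApoE (limma adjusted p = 0.0147) and with AS2 plasma (0.00642). Tlr7 was then also called between AS1 and ApoE (0.0112), with an unchanged difference of 0.174. That array is in neither of these groups and enters only the shared estimate of the spread. Without ApoE replicate 5 Tlr9 was called between AS2 and ApoE (adjusted p = 0.0452).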

How the results depend on the processing

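Over 27 alternative settings, 6 comparisons and 10 members, 1557 of 1620 values kept their direction and side of the threshold. Another 36 lost a call, 27 gained one and 0 called values reversed, while 10 values changed sign where neither was called. The settings with repeated quantile normalization and with centring on the median could hardly change a value. The arrays already shared their median, and their sorted values differed by at most 0.0019. These settings therefore add to the kept count without testing it. The number of members called was 6 for ApoE against WT (5 to 7 over the settings), 5 for AS1 against ApoE (4 to 6), 5 for AS2 against ApoE (4 to 6), 5 for AS1 against WT (3 to 6), 7 for AS2 against WT (7 to 8) and 7 for AS2 against AS1 (6 to 9). For AS1 against WT, leaving out single arrays gave 3 to 6. Same-numbered arrays showed no sign of deviating together (22 pairs, r from −0.207 to 0.133, 4 over 0.1). Of 97 pairs with different numbers 17 were over 0.1, and 1 of 17 arrays correlated best with its own number. No pairing by number was seen, but so few arrays cannot settle whether the numbers pair the samples. With the replicate number as a block, the counts were 5, 5, 4, 4, 7 and 7 in the order above, and Tlr3 (ApoE against WT, adjusted p = 0.0829), Tlr8 (AS2 against ApoE, 0.0741) and Tlr4 (AS1 against WT, 0.123) were no longer called. Without both ApoE replicates 2 and 5, Tlr3 (ApoE against WT) had an adjusted p of 0.0741, Tlr13 was called lower with AS1 than with ApoE (−0.27, 0.0094) and Tlr9 higher with AS2 than with ApoE (0.26, 0.0392). AS1 had 3 arrays, which limits every comparison with it. All member levels were above the array median, and the deposited values give no background signal.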
